A study of Mus musculus with 4 samples.

Results

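The 8 genes described here are the mouse eosinophil-associated ribonucleases Ear1, Ear2, Ear6 and Ear10 and the angiogenin genes Ang, Ang2, Ang4 and Ang5. They were chosen by name from the 32285 genes listed in the count files, and all 8 were listed there. Their UMIs (unique molecular identifiers, each counted as 1 captured RNA molecule) were read in macrophages sorted from collagenase-digested lungs of female mice and profiled by droplet 3′ single-cell RNA sequencing. Of the 4 libraries, wildtype early and wildtype late came from wildtype FVB mice of 16 and 32 weeks. HER2 early and HER2 late came from MMTV-HER2 mice of the same ages, in which a mouse mammary tumour virus promoter, active mainly in mammary epithelium, drives the HER2 oncogene. HER2 late mice carried palpable tumours and the early age was an early lesion stage, per the labels, which do not give the status of the late wildtype mice apart from their age. Each group was 1 library, and the sources used here give neither the mice behind a library nor the antibodies of the sort. No difference below therefore has a replicate check, and no test was run.

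These proteins are small secreted ribonucleases of the RNase A family. The Ear proteins were named for eosinophil granules, in which relatives of them are stored, yet several Ear genes are also among the best known markers of mouse alveolar macrophages. Angiogenins were named for a blood vessel growth activity, can cut transfer RNA inside cells and are held in check by the cytosolic ribonuclease inhibitor Rnh1. Ang4 is best known as an antibacterial protein of intestinal Paneth cells.

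All 8 genes lie on mouse chromosome 14 and are annotated as protein coding (GENCODE release M21, GRCm38, the assembly also called mm10). Ear1 (chr14:43818765-43875517, minus strand), Ear10 (chr14:43922720-43923559, minus strand), Ang5 (chr14:43957069-43963072, plus strand) and Ear2 (chr14:44102654-44103534, plus strand) lie in one cluster. Ang (chr14:51091150-51102009, plus strand), Ang2 (chr14:51195324-51199148, minus strand), Ang4 (chr14:51763878-51773590, minus strand) and Ear6 (chr14:51853699-51854643, plus strand) lie in another. Rnase4 (chr14:51091077-51106151, plus strand), a secreted ribonuclease that is no member of the group, overlaps Ang. RefSeq promoter windows (GRCm38.p6) were found for 7 of the 8 members, with none for Ang2.

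The 250 bases before the RefSeq start of the 4 Ear genes are shown because they are near copies of one another, while the levels of the genes given below differ widely. Capitals mark TTGCNNAA, a form of the C/EBP site, searched on both strands here and in the background. The windows lie at chr14:43819640-43819889, minus strand for Ear1, chr14:44102404-44102653, plus strand for Ear2, chr14:43923597-43923846, minus strand for Ear10 and chr14:51853518-51853767, plus strand for Ear6, each written 5′ to 3′ along its gene. RefSeq and GENCODE differ in some starts: the Ear1 window lies inside the longer GENCODE gene, near its 3′ end, and the Ear6 window runs into the first bases of the GENCODE gene.
Ear1: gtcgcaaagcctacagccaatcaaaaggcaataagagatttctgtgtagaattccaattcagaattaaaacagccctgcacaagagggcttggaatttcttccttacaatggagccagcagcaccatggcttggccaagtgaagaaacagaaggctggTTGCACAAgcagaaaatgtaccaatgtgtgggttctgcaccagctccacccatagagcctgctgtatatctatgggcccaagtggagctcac
Ear2: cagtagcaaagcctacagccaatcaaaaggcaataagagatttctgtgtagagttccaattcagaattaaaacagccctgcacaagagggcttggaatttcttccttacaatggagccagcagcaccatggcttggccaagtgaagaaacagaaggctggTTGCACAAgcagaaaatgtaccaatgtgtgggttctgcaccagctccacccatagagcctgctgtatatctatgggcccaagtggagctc
Ear10: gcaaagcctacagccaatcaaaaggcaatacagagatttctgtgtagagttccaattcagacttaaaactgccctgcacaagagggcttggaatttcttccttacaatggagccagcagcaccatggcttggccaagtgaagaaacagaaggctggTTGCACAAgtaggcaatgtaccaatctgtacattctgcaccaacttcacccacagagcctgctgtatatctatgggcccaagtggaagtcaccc
Ear6: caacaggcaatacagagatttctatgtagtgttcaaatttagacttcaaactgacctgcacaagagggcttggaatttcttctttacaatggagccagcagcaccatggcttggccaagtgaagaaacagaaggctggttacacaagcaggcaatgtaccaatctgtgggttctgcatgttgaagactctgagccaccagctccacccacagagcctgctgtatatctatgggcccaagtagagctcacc

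Ear1 and Ear2 were 99.2% identical over 248 aligned bases before their RefSeq starts, with 2 substitutions and no gap. Ear10 was 93.5% identical to Ear1 and 93.9% to Ear2, and Ear6 was 85.1 to 85.4% identical to the other three. TTGCACAA, a match to the C/EBP form, stood 90 to 94 bases before the start in Ear1, Ear2 and Ear10, and the Ear6 window holds no match on either strand. Of 32817 promoter windows cut to the same length, 9.57% hold TTGCNNAA. A match is a description of these letters and not of binding.

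The windows of Ang4 (chr14:51773591-51773840, minus strand) and Ang5 (chr14:43956819-43957068, plus strand) are shown because they resemble each other although the genes lie in different clusters. Capitals mark AGGAAGT, an ETS-family form, searched on both strands. The Ang window (chr14:51090827-51091076, plus strand) is shown because RefSeq gives the same window for Rnase4, and its letters hold no AGGAAGT.
Ang4: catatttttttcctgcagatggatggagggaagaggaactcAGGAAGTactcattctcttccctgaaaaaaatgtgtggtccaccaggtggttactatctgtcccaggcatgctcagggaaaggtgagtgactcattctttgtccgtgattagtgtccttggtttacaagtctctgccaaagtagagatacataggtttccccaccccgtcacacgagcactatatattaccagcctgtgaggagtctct
Ang5: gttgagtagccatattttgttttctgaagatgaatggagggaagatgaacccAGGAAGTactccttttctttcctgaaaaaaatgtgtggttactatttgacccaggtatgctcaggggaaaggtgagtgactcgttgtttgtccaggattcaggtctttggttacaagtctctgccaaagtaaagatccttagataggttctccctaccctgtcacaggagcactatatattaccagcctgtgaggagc
Ang: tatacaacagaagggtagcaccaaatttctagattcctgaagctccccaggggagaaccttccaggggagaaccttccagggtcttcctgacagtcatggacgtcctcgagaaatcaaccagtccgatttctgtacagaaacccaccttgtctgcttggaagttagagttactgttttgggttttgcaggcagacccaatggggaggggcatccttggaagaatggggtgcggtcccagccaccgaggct

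The Ang4 and Ang5 windows were 81.0% identical over 253 aligned columns. AGGAAGT stood 209 bases before the start of Ang4 and 198 before that of Ang5, and 7.69% of all windows hold it. The AP-1 form TGACTCA was found in Ang4, 122 bases before the start, and in no other member's window, against 4.46% of all windows. TATAAA, in 12.4% of all windows, and CACGTG, in 6.02%, were in no member's window on either strand.

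The transcript ends of Ear1, Ear2 and Ear10 are also near copies, which bears on how reads are told apart. The last 300 bases of Ear2 matched Ear1 at 98.7% identity over 300 bases, and those of Ear10 matched Ear2 at 97.0% over 300 bases. Ear1 and Ear10 ends also matched the pseudogenes Ear-ps9 (98.9% over 264 bases) and Ear-ps2 (99.0% over 293 bases). No other member had a match of 95% or more over at least 90 bases. The sources used here do not say how reads shared by such copies were counted, so the split between Ear1, Ear2 and Ear10 is uncertain. The sum of the 8 members is therefore given beside single genes. Shared reads left out of the counts, if any, would be missing from that sum too.

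After filtering, 5449, 5126, 5129 and 6554 cells remained, with libraries ordered here and below as wildtype and HER2 early, then wildtype and HER2 late. Alveolar macrophages (AM) were the cells with Chil3, Fabp1, Lpl and Plet1 at 0.2% or more of UMIs and above C1qa, C1qb and C1qc, and numbered 4850, 4418, 4254 and 5703. Interstitial macrophages (IM) were the cells with 5 or more C1q UMIs and C1q above the AM sum (335, 458, 636 and 678), and 173 to 264 cells per library were neither. AM cells gave 18222206 to 27479267 UMIs per library and a median of 3726 to 4747 UMIs per cell, and 49 cell barcodes occurred in more than 1 library. All 8 AM markers were present in AM cells (11374 to 16626 CPM summed, against 491 to 965 in IM cells). Chil3, Fabp1, Lpl and Plet1 are among these 8, so their part of this contrast was set by the rule. The markers outside the rule, Siglecf, Car4, Krt79 and Marco, were each higher in AM than in IM cells of every library. In wildtype early they stood at 54.8 to 565 CPM in AM cells and at 4.35 to 29.3 CPM in IM cells. CPM is the count of a gene per 1000000 UMIs of the same class and library. It is not scaled by gene length, because 3′ UMIs count transcript ends. Intervals are exact at 95% and cover counting error only.

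In AM cells the 8 genes together gave 6910.0, 7846, 4963 and 6958 CPM, or 0.691, 0.785, 0.496 and 0.696% of all UMIs. The wildtype late level was the lowest and the HER2 early level the highest. Ear1 and Ear2 made up 74.1 to 84.3% of these UMIs. Ear2 was at 3410.3, 4440.2, 2126 and 2666 CPM and ranked between 16th and 36th among all genes of AM cells. Ear1 was at 2242, 2173, 1553 and 2848 CPM and ranked between 24th and 56th. HER2 late was the library in which Ear1 stood above Ear2, while Ear2 was higher in the other three.

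**Figure D1:**
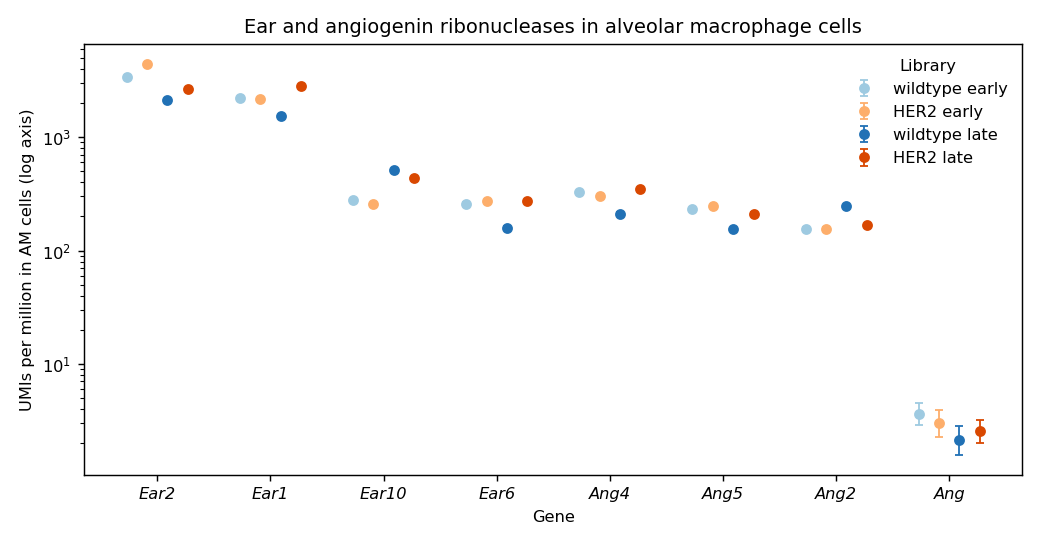
Level of each gene in AM cells of the 4 libraries, in CPM on a log axis, with exact 95% counting intervals that are often smaller than the points. Ear2 and Ear1 stand between 1553 and 4440.2 CPM, 5 genes between 154 and 511 CPM, and Ang below 4 CPM.

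The remaining Ear genes were lower than Ear1 and Ear2 in every library. Ear10 was at 279.9, 256, 511 and 439 CPM, with both late libraries above both early ones. Ear6 was at 259, 271, 159 and 272 CPM, and wildtype late alone stood apart. Among the angiogenins Ang4 was at 327, 301, 210.5 and 351 CPM and Ang5 at 231, 245, 154 and 212 CPM, both lowest in wildtype late. Ang2 ran the other way, at 156, 156, 247 and 168 CPM, and was highest in wildtype late. Ang was very low in AM cells, at 3.62, 3.02, 2.13 and 2.55 CPM from 83, 55, 46 and 70 UMIs, and was highest in wildtype early (interval 2.89 to 4.49) and lowest in wildtype late (1.56 to 2.84).

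Ear1 and Ear2 were seen in most AM cells and the other members in fewer. After thinning each cell to 2000 UMIs, which left out 175 to 492 shallower AM cells per library, Ear2 was seen in 97.1% of HER2 early cells and in 90.6 to 95.3% of cells of the other libraries. Ear1 was seen in 92.6, 93.3, 87.0 and 93.6% of AM cells. Ear10 was seen in 41.4, 39.7, 59.9 and 55.7%, and Ang4, Ang5, Ang2 and Ear6 in 25.1 to 44.6%. The thinned median of Ear2 was 6, 8, 3 and 4 UMIs per cell and that of Ear1 was 4, 4, 2 and 5. Unthinned shares for Ear10 were 65.4, 59.5, 83.0 and 79.2%. Thinned shares in IM cells were 2.44, 1.15, 4.86 and 5.26% for Ear10, 4.86 to 12.4% for Ear2 and 0.459 to 3.09% for Ang4, Ang5, Ang2 and Ear6. How much of the AM shares comes from RNA outside cells, which was rich in Ear10 in wildtype late, was not tested. The tenth of AM cells with most Ear2 held 23.6 to 26.7% of its thinned UMIs.

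Markers of eosinophils, the cells for which the Ear genes were named, were at or near 0 in AM cells. Epx had 0 UMIs in every library, which allows up to 0.109 to 0.165 CPM, and the 6 eosinophil markers together had 2, 0, 0 and 1 UMIs. Paneth or intestinal markers together stood at 2.5 to 4.2 CPM in AM cells, nearly all of it Lyz1, and Defa24 and Defa30 had 0 UMIs.

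Of the 8 members 7 were higher in AM than in IM cells of every library and 1, Ang, was lower. The share of all genes higher in AM than in IM cells is not given here, so this count has no background beside it. The 7 differed 12.7 to 90.9-fold, depending on gene and library. Ear1 showed ratios of 34.8, 27.9, 90.9 and 21.2, Ear2 of 32.0, 29.0, 75.9 and 20.2, and Ear10 of 13.9, 23.1, 17.7 and 12.7. Their levels in IM cells were 64.5, 78.0, 17.1 and 134 CPM for Ear1 and 106, 153, 28.0 and 132 CPM for Ear2. Wildtype late IM cells were lowest in both genes. For the 8 members summed the AM over IM ratio was 28.3, 27.2, 46.8 and 18.3.

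Ang showed the opposite order, at 15.0, 16.2, 8.76 and 16.8 CPM in IM cells from 38, 38, 20 and 68 UMIs. Its IM level was 4.15-fold (interval 2.75 to 6.16), 5.37-fold (3.45 to 8.26), 4.11-fold (2.30 to 7.09) and 6.60-fold (4.66 to 9.35) above its AM level. Rnase4, which shares the Ang window printed above, was also higher in IM cells, at 175, 199, 188 and 149 CPM against 30.7, 29.1, 34.0 and 27.9 CPM in AM cells. Rnase4 thus stood 5.34 to 6.84-fold higher in IM cells. Reads of these overlapping genes were separated by the authors' counting in a way that the sources used here do not state.

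**Figure D2:**
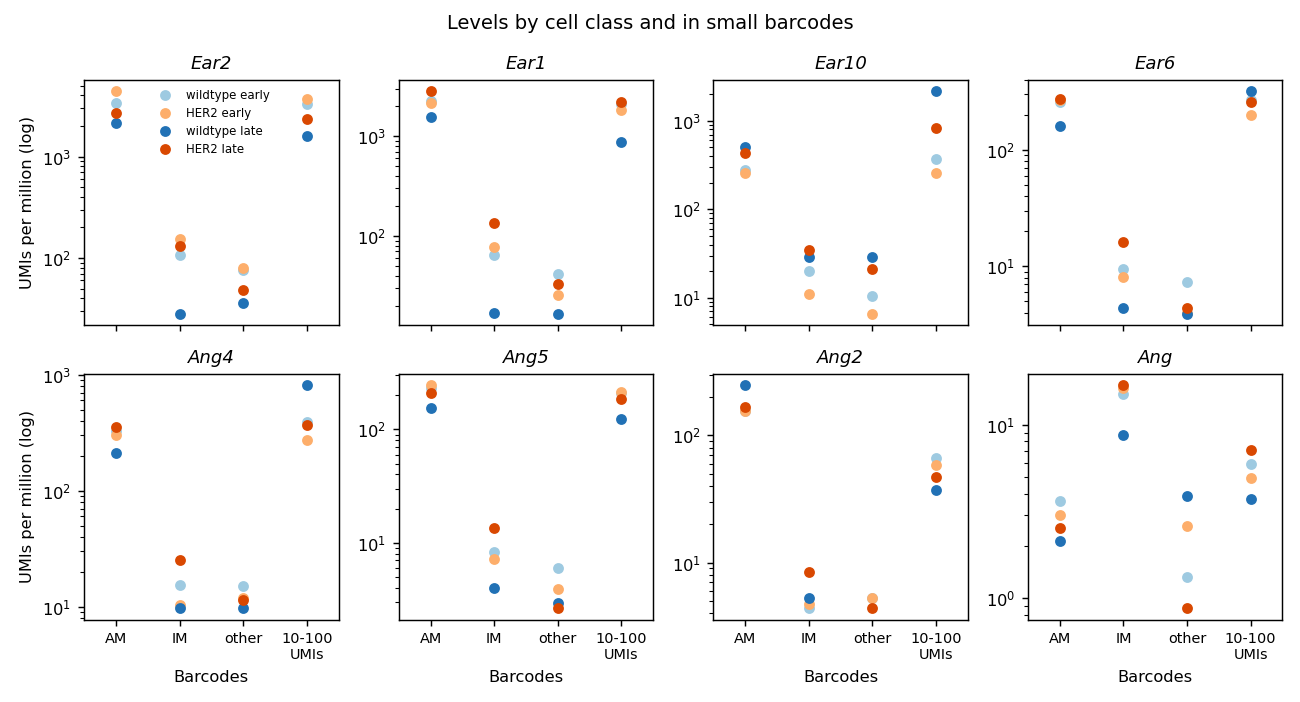
Level of each gene by library in AM cells, IM cells, other cells and barcodes of 10 to 100 UMIs, in CPM on log axes that differ between panels. In 7 panels AM cells stand above IM and other cells, and in the Ang panel IM cells are highest. Ang2 in other cells of wildtype late had 0 UMIs and has no point.

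Part of what IM and other cells hold is also in RNA outside cells, taken here as the barcodes of 10 to 100 UMIs. In early libraries that RNA resembled AM cells: Ear1 was at 2110.4 and 1848 CPM there and Ear2 at 3273 and 3668. The ratio of a member to Chil3, the chitinase-like AM marker, was then compared, since RNA of one source keeps its genes in one ratio. Chil3 is also an AM rule gene, so the class rule itself bears on this ratio in AM and IM cells. Ear1 per 100 Chil3 UMIs was 26.2, 27.9, 6.96 and 24.4 in IM cells against 31.5, 29.8, 13.3 and 30.2 in AM cells and 30.3, 28.7, 9.57 and 22.2 outside cells. In wildtype late the IM value of Ear1 was below that of AM cells, and its interval (4.90 to 9.64) included the value outside cells. In wildtype early the IM interval (21.9 to 31.2) included the value outside cells but not that of AM cells. The HER2 early interval (23.5 to 32.9) included both. In HER2 late the interval (22.20 to 26.84) lay below the AM value and just above that outside cells (22.17). Ang differed, with 6.11, 5.78, 3.57 and 3.06 per 100 Chil3 in IM cells against at most 0.0846 outside cells. Thinned shares of cells with an Ear1 UMI were 7.62, 7.11, 3.18 and 9.89% in IM cells and 5.63, 4.83, 2.50 and 6.58% in other cells, at median depths of 3225 to 6477 and 2927 to 4936 UMIs. In IM cells 17.9 to 30.1% of Ear1 UMIs lay in 3 cells of a library, and leaving out the 37 IM cells of wildtype early with 5 or more UMIs of the AM rule genes took Ear1 from 163 to 30 UMIs. The parts of RNA outside cells and of doublets in the IM values were not tested.

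RNA outside cells departed from AM cells in the late libraries, and by gene. Ear10 was at 2181 CPM outside cells of wildtype late, 4.27-fold (4.12 to 4.43) its AM level, and at 832 CPM in HER2 late, 1.90-fold (1.78 to 2.01). In the early libraries that ratio was 1.31 and 1.00. Ang4 was 3.85-fold (3.63 to 4.08) above AM cells in wildtype late against 1.05-fold in HER2 late, and Ear6 2.02-fold against 0.947. Ear1 went the other way and stood at 0.564 of its AM level outside cells of wildtype late. Ang2 was depleted outside cells in every library, at 0.421, 0.376, 0.149 and 0.282 of its AM level. If all C1q UMIs in AM cells came from RNA outside cells, that RNA would make up 2.19, 2.48, 8.17 and 10.2% of AM UMIs. These shares, which C1q made by AM cells or doublets would overstate, are those subtracted below.

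At 16 weeks the ribonucleases were nearly level between HER2 and wildtype AM cells, with Ear2 as the exception. Ear2 was 1.302-fold higher in HER2 early (4440.2 against 3410.3 CPM, interval 1.29 to 1.31), just over the 1.3-fold taken here as a call. No other member passed in either direction, so 1 of 7 members with at least 10 CPM was higher and 0 were lower. Over all 7183 genes of that level 0.473% were higher and 1.2% were lower. The other 6 ranged from Ear10 at 0.916 (0.882 to 0.951) to Ang5 at 1.06 (1.02 to 1.10). Ear1, the close copy of Ear2, was at 0.969 (0.957 to 0.982), and this sign turned under 2 alternatives. The members' median log2 ratio was 0.00 against -0.03 over all genes, and their sum was 1.14-fold higher (1.13 to 1.14). With all kept barcodes, a 5% mitochondrial limit or an AM rule at 1% of UMIs, Ear2 fell short of 1.3-fold and the count of higher members was 0.

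At 32 weeks 4 members were higher in HER2 AM cells and 1 was lower. Ear1 was 1.83-fold higher (2848 against 1553 CPM, 1.81 to 1.86), Ear6 1.71-fold (1.64 to 1.78), Ang4 1.67-fold (1.61 to 1.73) and Ang5 1.37-fold (1.32 to 1.43). Over all 7435 genes of at least 10 CPM 3.42% were higher and 20.8% were lower. Ang2 was the member that was lower, at 168 against 247 CPM or 1.47-fold (ratio 0.678, 0.652 to 0.705). Ear2 did not pass at 1.25 (1.24 to 1.27), nor did Ear10 at 0.858 (0.836 to 0.881). The members' median log2 ratio was 0.46 against -0.21 over all genes, and their sum was 1.40-fold higher (1.39 to 1.41).

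Because the median gene was lower in HER2 late, scaling matters at this age. With size factors from the median ratio over genes of 50 or more CPM, 559 genes were higher and 421 lower, in place of 254 and 1549. Under that scaling 5 members were higher, Ear2 being added at a log2 ratio of 0.48, and 1 was lower. Subtracting RNA outside cells turned Ear10 from -0.22 to 0.12 on the log2 scale and moved Ang4 from 0.74 to 1.15. IM markers in AM cells (7 of 7 with UMIs) summed to 263, 361, 313 and 477 CPM, mostly Apoe (214, 295, 210 and 327 CPM). Epithelial markers (5 of 5) summed to 259, 230.0, 167 and 177 CPM, mostly Epcam (254, 202, 150 and 170 CPM). Epcam was lower in other cells than in AM cells of every library, at 116, 131, 76.7 and 144 CPM. Neutrophil markers (4 or 5 of 7) summed to 59.7, 58.1, 91.1 and 77.1 CPM, nearly all of it S100a8 and Mmp8, with Retnlg and Ly6g at 0. The part of other cell types in the ratios was not tested. Fewer AM cells of a kind and less of an RNA per cell cannot be told apart in these sums.

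**Figure D3:**
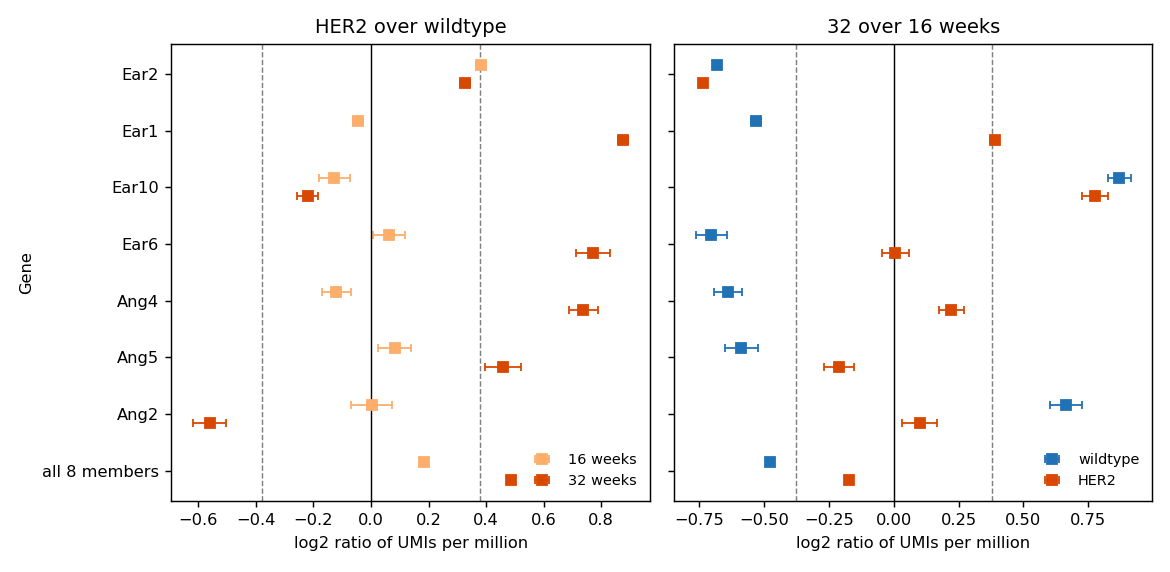
log2 ratio of AM levels for 7 members and the sum of all 8, HER2 over wildtype at each age (left) and 32 over 16 weeks in each genotype (right), with exact 95% counting intervals and dashed lines at 1.3-fold. At 16 weeks the points lie near 0 except Ear2 at 0.38, while at 32 weeks they spread from -0.56 (Ang2) to 0.88 (Ear1).

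With age, wildtype AM cells held less of most members and more of Ear10 and Ang2. Ear6 was 1.63-fold lower at 32 weeks (159 against 259 CPM), Ear2 1.60-fold, Ang4 1.56-fold, Ang5 1.503-fold and Ear1 1.44-fold. Ear10 was 1.83-fold higher (1.77 to 1.88) and Ang2 1.58-fold higher (1.52 to 1.65). T cell markers in AM cells (5 of 5 with UMIs), mainly Trbc2, summed to 29.2, 1.98, 1.67 and 2.73 CPM, highest in wildtype early, and their part in these ratios was not tested. Of 7 members 2 were higher and 5 lower, against 21.1% and 5.95% of 7490 genes. The members' median log2 ratio was -0.59 while that of all genes was 0.16, and their sum was 1.39-fold lower. With size factors 763 genes were higher and 777 lower in place of 1580 and 446, while members still numbered 2 higher and 5 lower. Subtracting RNA outside cells moved Ear10 from 0.87 to 0.38 and Ang4 from -0.64 to -1.05 on the log2 scale.

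In HER2 AM cells 3 of the 7 members passed 1.3-fold between the same ages. Ear2 was 1.67-fold lower (2666 against 4440.2 CPM, ratio 0.601, 0.595 to 0.607) and Ear10 was 1.71-fold higher (1.65 to 1.77). Ear1 just passed at 1.31-fold higher (1.29 to 1.33) and fell short of 1.3-fold under 4 alternatives. Against 1.38% and 1.2% of 7167 genes, 2 of 7 members were higher and 1 was lower. The other 4 ranged from Ang5 at 0.864 (0.830 to 0.898) to Ang4 at 1.17 (1.13 to 1.21). The members' median log2 ratio was 0.10 against -0.01 over all genes.

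Ear2 was lower and Ear10 higher at 32 than at 16 weeks in both genotypes, from separate pairs of libraries. For Ear1 the HER2 ratio was 1.31 and the wildtype ratio 0.692, and for Ang4 they were 1.17 and 0.643. The 4 comparisons share libraries, since wildtype late is the denominator at 32 weeks and the numerator of the wildtype age ratio. That library was lowest in Ear1, Ear2, Ear6, Ang4 and Ang5 and highest in Ear10 and Ang2.

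Ratios between members of one library do not depend on its total, and they moved with library too. Ear1 per Ear2 in AM cells was 0.657, 0.489, 0.730 and 1.07, lowest in HER2 early and highest in HER2 late. In IM cells HER2 late was also highest, at 1.01 (0.899 to 1.15). The IM values of the other libraries had overlapping intervals, at 0.606 (0.496 to 0.739), 0.510 (0.424 to 0.611) and 0.609 (0.398 to 0.921). RNA outside cells of the early and HER2 late libraries followed the AM order, at 0.645, 0.504 and 0.945, with 0.550 in wildtype late. Ear10 per Ear2 in AM cells was 0.0821, 0.0577, 0.240 and 0.164, higher in both late libraries. Outside cells it was 0.112, 0.0701, 1.37 and 0.356, and in IM cells 0.190, 0.0724, 1.03 and 0.262. In wildtype late IM cells the Ear10 to Ear2 ratio was closer to that outside cells than to that of AM cells. In wildtype early its IM interval (0.138 to 0.257) lay above both values. The HER2 early interval (0.0467 to 0.108) included both, and the HER2 late interval (0.216 to 0.316) lay between them. The source of these UMIs in IM cells was not tested. Ang2 per Ang5 in AM cells was 0.674, 0.638, 1.61 and 0.792, so that Ang2 exceeded Ang5 in wildtype late alone.

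**Figure D4:**
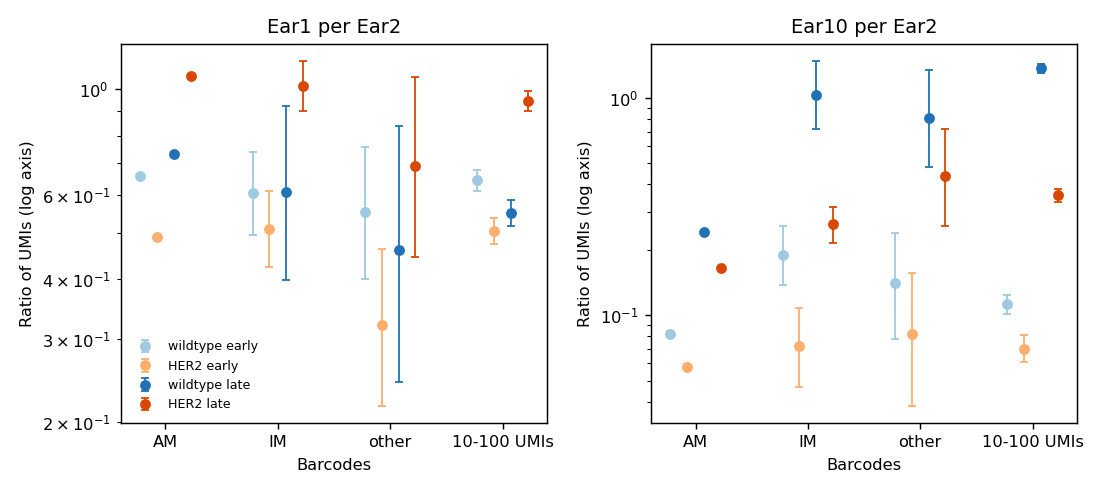
UMIs of Ear1 (left) and Ear10 (right) per UMI of Ear2 in AM cells, IM cells, other cells and barcodes of 10 to 100 UMIs of each library, on log axes with exact 95% counting intervals. Ear1 per Ear2 is highest in HER2 late in AM cells (1.07), and Ear10 per Ear2 reaches 1.37 outside cells of wildtype late.

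In IM cells the 32-week ratios differed by member. Ear1 was 7.85-fold higher in HER2 late than in wildtype late IM cells (542 against 39 UMIs, 5.67 to 11.2) and Ear2 4.71-fold (534 against 64 UMIs, 3.63 to 6.21). Ear6, Ang4 and Ang5 had ratios of 2.62 to 3.67, while Ear10 at 1.20 (0.888 to 1.63) and Ang2 at 1.60 (0.808 to 3.39) had intervals that included 1. Chil3, an AM rule gene, was 2.24-fold higher there too (2.04 to 2.46). Without IM cells holding 5 or more UMIs of the AM rule genes, which left out 57 cells of wildtype late and 113 of HER2 late, the Ear1 ratio was 2.10 (1.303 to 3.52) and the Ear2 ratio 1.61 (1.10 to 2.41). Ear10 was then at 0.716 (0.469 to 1.10), Ear6 at 0.788 (0.297 to 2.15) and Ang4 at 0.720 (0.355 to 1.48), while Chil3 was at 0.776 (0.657 to 0.917). This alternative was chosen after seeing the data. Its limit of 5 UMIs is not scaled to depth, and IM cells had a median of 3224.5 UMIs in wildtype late and 5276 in HER2 late. Chil3 is itself among the genes the limit counts, so its level there was partly set by it. Ang in IM cells was 1.92-fold higher in HER2 late (1.15 to 3.34) and 1.84-fold (1.09 to 3.23) without those cells, while Rnase4 was at 0.795 (0.701 to 0.902).

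Within each library the summed members, which Ear1 and Ear2 dominate, differed with the lists a cell held. AM cells with 3 or more UMIs of 17 cell cycle genes, 206 to 289 cells per library after thinning, held less of the summed members than AM cells with 0. The ratio for the 8 members summed was 0.711 (0.684 to 0.739), 0.695 (0.666 to 0.725), 0.680 (0.643 to 0.717) and 0.671 (0.644 to 0.699). The direction was the same in Ear1 (0.672 to 0.700), Ear2 (0.658 to 0.699), Ear10 (0.611 to 0.706) and Ear6 (0.546 to 0.743). Lyz2, the macrophage lysozyme, showed ratios of 0.753, 0.704, 0.677 and 0.703, so a like difference was seen outside the ribonucleases. Ang4 ranged from 0.706 to 0.909, Ang5 from 0.626 to 0.842 and Ang2 from 0.645 to 0.846, and some of these intervals included 1. Ang in wildtype early went the other way, at 3.45 (1.24 to 8.42) from 7 UMIs in cells with 3 or more.

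AM cells with 3 or more UMIs of the MHC class II list, 702 to 1261 per library, held more of the summed members than cells with 0. The summed ratio was 1.23 (1.21 to 1.26), 1.15 (1.12 to 1.17), 1.13 (1.10 to 1.16) and 1.20 (1.18 to 1.22), and Lyz2 again gave nearly the same ratios, 1.23, 1.16, 1.15 and 1.20. Ear1, Ear2 and Ear10 were above 1 in every library, and Ear6 in all but HER2 early, where its interval included 1. For the angiogenins the intervals included 1 in all 4 libraries, with ratios of 0.911 to 1.01 for Ang2, 1.03 to 1.09 for Ang4 and 0.995 to 1.06 for Ang5. A list count is a range of cells and not a cell type, and 3 UMIs is a chosen limit. Cells with 3 or more chemokine UMIs (53 to 98 per library) had summed ratios of 1.09 (1.02 to 1.17), 1.07 (0.995 to 1.14), 1.10 (1.01 to 1.18) and 1.16 (1.10 to 1.22). The HER2 early interval included 1. Lyz2 was at 1.31, 1.14, 1.06 and 1.19 in the same cells, so a like difference was seen outside the ribonucleases. Gm42418, a transcript that overlaps a ribosomal RNA locus, was at 0.733, 0.679, 0.816 and 0.687 there. For the MHC class II list it was at 0.861, 0.921, 0.908 and 0.923. Thinned cells hold the same total, so a lower share of such an abundant transcript raises that of others. Its part in these ratios was not tested. Interferon and Gpnmb lists left fewer than 20 cells on one side and gave no ratio.

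**Figure D5:**
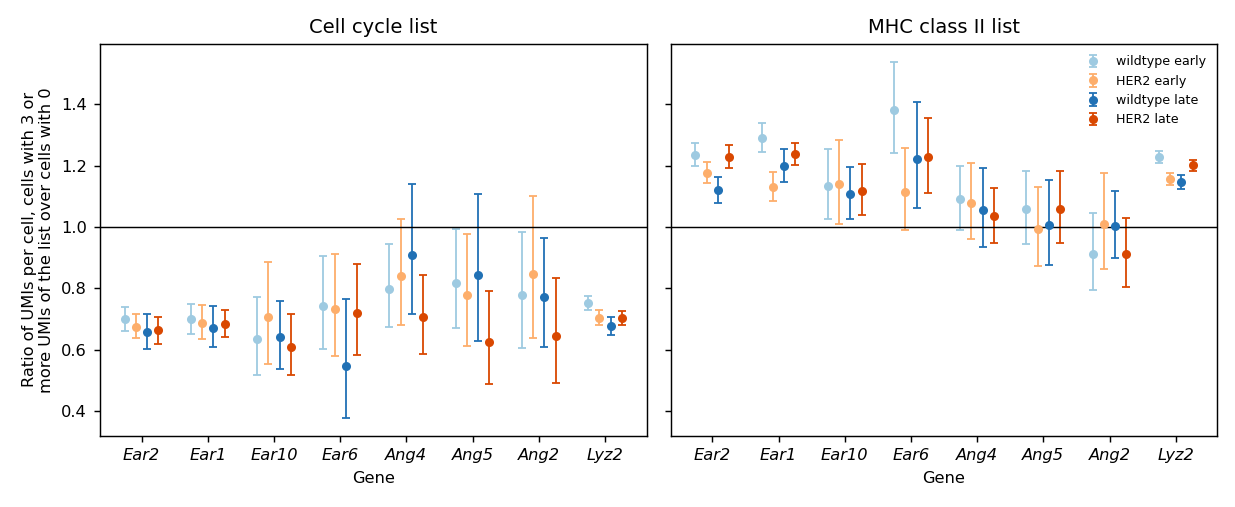
Ratio of UMIs per thinned AM cell between cells with 3 or more and with 0 UMIs of the cell cycle list (left) or the MHC class II list (right), for 7 members and Lyz2 in the 4 libraries, with exact 95% counting intervals. Ear1 and Ear2 lie at 0.658 to 0.700 on the left and at 1.12 to 1.29 on the right, close to Lyz2.

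Depth per cell also moved with these genes. AM cells of each library were split into 4 equal groups by UMIs per cell. In the shallowest group Ear2 was at 2123, 2834, 1408 and 1699 CPM, against 3797, 4975, 2319.6 and 2999 CPM in the deepest. Gm42418 ran the other way, from 247874 to 313656 CPM in the shallowest group and from 134652 to 150679 in the deepest. Ang2 was at 214, 197, 295 and 195 CPM in the shallowest group and at 125, 134, 213 and 149 CPM in the deepest, and so ran against Ear2. Ear10 was also higher in the shallowest group, at 292, 281, 540 and 489 CPM against 260, 230, 451 and 389 CPM in the deepest. The part of RNA quality in these differences was not tested.

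Across thinned AM cells of a library, Ear1 and Ear2 moved together, with Pearson r of 0.62, 0.61, 0.51 and 0.63 on log UMIs. Their near-identical ends, the shared library and the RNA content of a cell enter this value. Ear6 was next (0.21 to 0.33 with Ear1 and 0.24 to 0.33 with Ear2), and other pairs of members were at 0.21 or less, too weak to be read. Among 2519 genes of 50 or more CPM, those most like Ear2 were Lyz2 (mean r over 4 libraries 0.44), the oxidase subunit Cyba (0.31), the ferritin chain Fth1 (0.30), the signalling adaptor Tyrobp (0.29) and the protease inhibitor Cst3 (0.27). The same 5 genes led for Ear1, from 0.41 for Lyz2 to 0.24 for Cst3. At the other end Lars2 (-0.28) and Gm26917 (-0.23) were lowest for Ear2, and also for Ear1 (-0.25 and -0.21). Malat1 and Gm42418 came next for both. The part of RNA quality in these values was not tested. For Ear10, next after Ear1 by mean AM level over the 4 libraries although Ang4 was above it in both early ones, the highest mean r was 0.12, with Lyz2, which is too weak to be read.

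Other genes of the pathway were mostly low in AM cells. Of 15 further RNase A family and RNase T2 genes 13 were listed, and 3 reached 10 CPM in a comparison. Rnase4 was called in none of the 4 comparisons. Ang6, a further angiogenin, was at 10.9, 7.63, 18.1 and 14.6 CPM and was called lower in HER2 at 16 weeks (1.43-fold) and higher with age in wildtype (1.66-fold) and HER2 (1.91-fold). Rnaset2a, a lysosomal ribonuclease, was called in 1 comparison, 1.33-fold higher at 32 weeks in HER2. The median log2 ratio of the 3 genes was -0.32 and -0.28 for HER2 over wildtype at 16 and 32 weeks, and 0.14 and 0.41 for age in wildtype and HER2.

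Rnh1, the inhibitor that binds these enzymes, was at 252, 263, 287 and 251 CPM in AM cells and passed 1.3-fold in no comparison (ratios 0.875 to 1.14). Plxnb2, a receptor for angiogenin, was an IM gene, at 107, 131, 125 and 93.5 CPM there against 0.917 to 2.18 CPM in AM cells. Of 17 AM identity genes 1 was higher (Cidec) and 3 were lower (Lpl, Car4 and Mrc1) in HER2 at 32 weeks, against 3.42% and 20.8% of all genes, with a median log2 ratio of -0.17 against -0.21 over all genes. With age in wildtype 5 were higher (Chil3, Lpl, Marco, Bhlhe41 and Mrc1) and 2 lower (Fabp1 and Cidec), against 21.1% and 5.95% of all genes, with a median of 0.15 against 0.16.

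The authors' deposited table of average AM signal, scaled to 10000 per column, holds all 8 members. In the authors' deposited table Ear2 was at 28.3 in wildtype and 38.1 in HER2 at 16 weeks, a ratio of 1.34. For Ear1 the authors' deposited table gave 13.8 in wildtype and 24.6 in HER2 at 32 weeks, a ratio of 1.78. Ang2 at 32 weeks was at 2.59 in wildtype and 1.73 in HER2 in the authors' deposited table, 1.497-fold lower. Ang5 at 32 weeks, with a ratio of 1.29 in the authors' deposited table, fell just short of 1.3-fold there.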

How the data were processed

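Lung macrophages were sorted and profiled with the 10x Genomics 3′ assay, 1 library in each of 4 groups. The deposited count matrices hold whole UMI counts per gene and barcode, made by the authors with Cell Ranger. Its version is 5.0.1 and the genome build mm10 according to the submitters' processing notes, while per the file headers it is version 4. The authors' deposited averages for AM cells are a signal scaled to 10000 over 15904 genes in each group, and the sources used here do not say which cells they cover. Groups were taken from sample titles, since the strain label is the same for all samples.

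Cells kept had at least 1000 UMIs, 500 genes and at most 10% mitochondrial UMIs, a limit that removed 12.8 to 21.0% of the barcodes past the others. Doublets were not removed and no doublet caller was run. Counts were summed per class and library, divided by the class total and compared as ratios with exact conditional binomial intervals (Python 3.11.15, NumPy 2.4.6, SciPy 1.17.1, pandas 2.3.3). A gene was called at 1.3-fold or more where it had at least 10 CPM in 1 of the 2 libraries compared. This is a fold and not a test. On simulated data of 7031 to 7245 genes with 200 changed genes, the intervals covered 94.8 to 95.4% of true ratios and true 1.5-fold changes were called in 98.0 to 99.0% of cases. The simulated counts varied by counting error alone, which is the error the intervals assume. They hold no difference between mice or libraries, so they cannot show how often such a difference would be called. Sequences came from RefSeq windows and GENCODE transcripts, compared with MAFFT 7.526 and BLAST 2.17.0, and figures were drawn with matplotlib 3.10.9. All 8 members were named, with genes of the related lists that reached 10 CPM, Plxnb2 (below it, chosen after its values were seen) and the 5 genes most correlated with each of the 3 most abundant members. The members and lists were chosen with earlier results of these data known. Alternatives changed the cell filters, class rule, scaling, free RNA, cell weighting and depth.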

Additional observations from a re-analysis of the deposited data

Results flagged for a closer look

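Ear1 in AM cells had a log2 ratio of HER2 over wildtype of -0.045 at 16 weeks and of 0.88 at 32 weeks, so the direction differed between ages. Over the same libraries its log2 ratio of 32 over 16 weeks was -0.53 in wildtype and 0.39 in HER2. The value at 16 weeks is near 0 and turned positive under the alternatives given below. Ang4, the angiogenin best known from Paneth cells, had log2 ratios of HER2 over wildtype of -0.12 at 16 weeks and 0.74 at 32 weeks. Its log2 ratio of 32 over 16 weeks was -0.64 in wildtype and 0.22 in HER2. With 1 library per group these differences between ages and genotypes were not tested, and the pairs of ratios rest on the same 4 libraries. No group had enough libraries to look for one that stands far from its group.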

How the results depend on the processing

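No paired analysis was possible because each group is 1 library and the labels give no replicate numbers, and for the same reason no replicate could be left out. For the 8 members summed in AM cells the log2 ratio of HER2 over wildtype at 16 weeks was 0.18. It was 0.17 with a 5% mitochondrial limit, 0.20 with a 20% limit, 0.16 with the AM rule at 1%, 0.14 over all kept barcodes, 0.21 with size factors, 0.20 after thinning and 0.22 in the authors' deposited averages. At 32 weeks it was 0.49. It was 0.59 with the AM rule at 1%, 0.45 over all kept barcodes, 0.58 with totals without Gm42418, mitochondrial and ribosomal protein genes, 0.64 with size factors, 0.45 with every cell weighing the same, 0.53 with free RNA subtracted, 0.48 without cells of 3 or more cell cycle UMIs, 0.53 without cells over 25% Gm42418, 0.46 after thinning and 0.44 in the authors' deposited averages. The wildtype age ratio was -0.48. It was -0.50 with a 5% mitochondrial limit, -0.45 with a 20% limit, -0.65 with the AM rule at 1%, -0.45 over all kept barcodes, -0.54 with the reduced totals, -0.59 with size factors, -0.44 with every cell weighing the same, -0.50 with free RNA subtracted and -0.51 without cells over 25% Gm42418. The HER2 age ratio was -0.17. It was -0.18 at 2000 UMIs per cell, -0.22 with the AM rule at 1%, -0.14 over all kept barcodes, -0.15 with the reduced totals, -0.16 with size factors, -0.18 with every cell weighing the same, -0.16 with free RNA subtracted, -0.19 without cells of 3 or more cell cycle UMIs, -0.16 without cells over 25% Gm42418 and -0.21 after thinning. The sign of the sum was the same under every alternative run.

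The count of higher members at 16 weeks went from 1 to 0 with a 5% mitochondrial limit, the AM rule at 1% or all kept barcodes. In the HER2 age comparison it went from 2 to 1 with the AM rule at 1%, with every cell weighing the same, without cycling cells and after thinning. Ear1 at 16 weeks reversed to 0.0039 after thinning and 0.0113 in the authors' deposited averages. Ear10 at 32 weeks reversed to 0.12 with free RNA subtracted, and the cause was not tested. Ang2 at 16 weeks (0.0035) kept its sign under 10 of 17 alternatives, and Ear6 with age in HER2 (0.0060) under 11 of 16. Ang kept its sign under 15 of 16 for age in HER2 and under 16 of 17 for HER2 over wildtype at either age. Over all genes a minimum of 1 CPM gave 348 higher and 689 lower at 16 weeks and a minimum of 50 CPM gave 5 and 14, where 10 CPM gave 34 and 86. At 32 weeks these were 543 and 2650, 145 and 497, and 559 and 421 with size factors. For age in wildtype they were 2680 and 969, 551 and 253, and 763 and 777 with size factors, and in HER2 637 and 509, then 20 and 17. A lower minimum admits genes of fewer counts by construction.

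With 2 or more cell cycle UMIs the ratio of the summed members was 0.841, 0.836, 0.820 and 0.874, and with 5 or more it was 0.606, 0.535, 0.585 and 0.553. With 5 or more MHC class II UMIs it was 1.27 in wildtype early and 1.23 in HER2 late, where 2 or more gave 1.17. Depth limits Ang in AM cells (46 to 83 UMIs) and all members in IM cells.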
